A study of Mus musculus with 12 samples.

Results

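This account follows 10 genes of the inflammasome and of the interleukin-1 (IL-1) family in mouse liver: the sensors *Nlrp3* and *Aim2*, the adaptor *Pycard*, the caspases *Casp1* and *Casp4*, the pore-forming *Gsdmd*, the cytokines *Il1a*, *Il1b*, and *Il18*, and the receptor antagonist *Il1rn*. The genes were chosen by symbol for their known roles, without a threshold on expression but with earlier results of these data known. All 10 were found among the 40551 genes of the count tables, and all 10 passed the filter on low counts that left 15070 genes for testing. In the livers that lacked *Mcl1* in hepatocytes, *Il1rn*, *Aim2*, *Pycard*, *Casp4*, and *Nlrp3* were higher than in wild-type (WT) livers. *Gsdmd* was lower, close to the threshold and with a call that depended on the scaling factors. *Casp1* and the cytokine genes *Il1a*, *Il1b*, and *Il18* did not pass the test.

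An inflammasome is a cytosolic complex in which a sensor protein, after detecting a danger or microbial signal, gathers the adaptor ASC (encoded by *Pycard*) and activates caspase-1. Caspase-1 cuts the precursors of IL-1β and IL-18 and also gasdermin D, whose freed part forms pores in the plasma membrane. IL-1α, IL-1β, and the antagonist share one receptor, and in the liver much of the inflammasome machinery is known from resident and recruited myeloid cells. Cutting and release of these proteins are not seen in mRNA levels.

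Total RNA was sequenced from 12 livers, with 3 for each of 4 genotypes: WT, the single mutants *Mcl1*Δhep and *Sting1*-/-, and the double mutant *Mcl1*Δhep *Sting1*-/-. In *Mcl1*Δhep mice, Cre driven by the albumin promoter removes floxed *Mcl1*, a prosurvival gene of the Bcl-2 family, from hepatocytes, so the other cells of the liver keep it. *Sting1*-/- mice lack the DNA-sensing adaptor STING in all cells, and the double mutants came from crossing both lines. The labels name no treatment, age, or sex, and nothing in them groups the livers beyond genotype. The comparisons between genotypes ask how the inflammasome and IL-1 genes change when *Mcl1* is lost, with and without *Sting1*.

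Each library held 28826367 to 45266387 counts on genes. Levels are given in CPM, the counts scaled to a common library size with the trimmed mean of M values (TMM), and levels are compared between genes only in TPM, which also take gene length into account. *Mcl1* was at 98.6 ± 7.36 CPM in WT livers and at 29.0 ± 4.58 CPM in *Mcl1*Δhep livers (SD, n = 3 each), and at 81.8 ± 7.20 and 22.3 ± 3.96 CPM in the *Sting1*-/- and *Mcl1*Δhep *Sting1*-/- livers. *Sting1* was at 2.36 ± 0.219 CPM in WT and 1.86 ± 0.779 CPM in livers labelled *Sting1*-/-, with overlap. It was at 4.75 ± 1.17 CPM in *Mcl1*Δhep and 2.25 ± 0.321 CPM in *Mcl1*Δhep *Sting1*-/- livers, without overlap. That log2 difference was -1.06 ± 0.29 (adjusted p = 0.134, and 0.0221 in DESeq2). *Mcl1*Δhep exceeded WT by 0.99 ± 0.29 (adjusted p = 0.0324). Counts on *Sting1* remained in both groups labelled *Sting1*-/-, so that in these libraries the *Sting1* genotype rests on the labels. The paper reports a check of the knockout in its *Sting1*-/- mice by Western blotting, that is, in protein, which these counts do not measure. Some libraries stood apart. *Mcl1*Δhep replicate 3 had 0.175% of its counts on skeletal muscle genes, against at most 0.00091% in any other library. Small structured RNAs took 2.77% and 1.55% of the counts of *Mcl1*Δhep replicates 2 and 3, against 0.192% to 0.980% elsewhere. Genes of the Y chromosome were expressed in WT replicates 2 and 3 and in *Mcl1*Δhep *Sting1*-/- replicate 1, and in no other library. In comparisons that use WT or double mutant livers, sex and genotype therefore cannot be fully told apart. The hepatocyte markers were present in every library, and 0 of the 8 differed between *Mcl1*Δhep and WT.

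The promoter-proximal sequences of 4 of the 5 genes that rose are shown, because motifs for the factors NF-κB and PU.1 were looked for in them. Each is the stretch before the start of the Ensembl canonical transcript in genome build GRCm39, written 5′ to 3′ on the strand of the gene, with matches in capitals. The 4 genes have from 2 (*Pycard*) to 6 (*Casp4*) annotated start sites, and the stretches before their other starts were not searched. For *Casp4*, the last 15 of the 250 bases are left out because they lie in an exon of another of its transcripts. The window of *Aim2* lies wholly in exons of its other transcripts and is not shown.
Il1rn, chr2:24226615-24226864, plus strand: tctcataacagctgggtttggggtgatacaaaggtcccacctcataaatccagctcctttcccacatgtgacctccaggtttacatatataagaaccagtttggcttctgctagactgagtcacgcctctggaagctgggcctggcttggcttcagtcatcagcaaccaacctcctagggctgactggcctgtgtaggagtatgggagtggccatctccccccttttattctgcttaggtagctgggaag
Nlrp3, chr11:59433262-59433511, plus strand: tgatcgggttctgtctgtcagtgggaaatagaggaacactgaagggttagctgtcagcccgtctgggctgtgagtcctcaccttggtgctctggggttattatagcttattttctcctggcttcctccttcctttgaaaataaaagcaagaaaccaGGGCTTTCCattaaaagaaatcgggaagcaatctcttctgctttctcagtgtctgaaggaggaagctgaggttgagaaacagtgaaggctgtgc
Casp4, chr9:5308593-5308827, plus strand: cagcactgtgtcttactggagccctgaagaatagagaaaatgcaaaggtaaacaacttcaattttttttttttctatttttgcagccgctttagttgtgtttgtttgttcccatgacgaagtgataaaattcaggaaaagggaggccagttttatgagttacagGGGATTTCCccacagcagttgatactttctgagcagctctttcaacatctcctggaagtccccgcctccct
Pycard, chr7:127593040-127593289, minus strand: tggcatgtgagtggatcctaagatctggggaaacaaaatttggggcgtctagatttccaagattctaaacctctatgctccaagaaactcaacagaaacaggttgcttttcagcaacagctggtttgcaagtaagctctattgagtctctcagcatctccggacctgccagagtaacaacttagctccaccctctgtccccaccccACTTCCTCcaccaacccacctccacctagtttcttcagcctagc
The capitals in *Nlrp3* and *Casp4* mark the NF-κB core GGNNTTTCC, which was found in 3 of the 10 windows (*Il18*, *Nlrp3*, and *Casp4*) and in 4.86% of the 21594 windows of protein-coding genes. Those in *Pycard* mark the PU.1 motif GAGGAAGT read on the opposite strand, found in this window alone of the 10 and in 2.09% of all windows. The core of the interferon-stimulated response element, GAAANNGAA, and the GAS motif for STAT factors, TTCNNNGAA, were in 7.56% and 7.73% of all windows and in 0 of the 10. All motifs were searched on both strands, GGNNTTTCC and the other motifs could overlap, and a match is only a run of letters.

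Of the sensors, *Nlrp3* (ENSMUSG00000032691, chr11:59432394-59457782, plus strand) encodes a cytosolic protein that responds to ion fluxes and cell damage. It was at 0.897, 0.593, and 0.660 CPM in the WT livers, at 1.90, 1.01, and 1.42 CPM in the *Mcl1*Δhep livers, at 1.77, 1.32, and 1.48 CPM in the *Mcl1*Δhep *Sting1*-/- livers, and at 0.844, 1.22, and 1.01 CPM in the *Sting1*-/- livers. Both groups without hepatocyte *Mcl1* lay above WT in every library. The log2 fold change of *Mcl1*Δhep over WT was 0.96 ± 0.29 (SE; adjusted p = 0.0355), and *Mcl1*Δhep *Sting1*-/- differed from *Mcl1*Δhep by 0.06 ± 0.28 (adjusted p = 0.917). *Nlrp3* was a low gene, with 20 to 92 counts per library.

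*Aim2* (ENSMUSG00000037860, chr1:173178445-173293930, plus strand) encodes a sensor of double-stranded DNA in the cytosol that works without STING. Its levels were 0.343, 0.830, and 0.958 CPM in WT, 2.40, 2.48, and 1.74 CPM in *Mcl1*Δhep, 1.54, 1.51, and 1.23 CPM in *Mcl1*Δhep *Sting1*-/-, and 0.611, 0.902, and 0.844 CPM in *Sting1*-/- livers. The *Mcl1*Δhep livers were highest, the double mutants came next without overlap, and the WT and *Sting1*-/- livers overlapped at the bottom. The rise over WT was 1.58 ± 0.33 on the log2 scale (adjusted p = 0.00927). Between *Mcl1*Δhep *Sting1*-/- and *Sting1*-/- livers it was 0.81 ± 0.33 (adjusted p = 0.355), which did not pass the test. *Aim2* had only 13 to 116 counts per library, the lowest median level of the 10 genes at 0.592 TPM.

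*Pycard* (ENSMUSG00000030793, chr7:127588558-127593039, minus strand) encodes ASC, the adaptor that links sensors to caspase-1. It was at 1.58, 1.57, and 1.95 CPM in WT and at 2.52, 5.94, and 3.45 CPM in *Mcl1*Δhep livers, and at 1.84, 2.36, and 1.94 CPM in *Mcl1*Δhep *Sting1*-/- and 1.22, 2.02, and 2.07 CPM in *Sting1*-/- livers. The 3 *Mcl1*Δhep livers lay above the other 9, with replicate 2 far above the rest. *Mcl1*Δhep exceeded WT by 1.19 ± 0.31 (adjusted p = 0.0223), and the double mutants were 0.93 ± 0.31 below *Mcl1*Δhep on the log2 scale, with an adjusted p of 0.155. Without *Mcl1*Δhep replicate 2, the *Mcl1*Δhep rise of *Pycard* was 0.79 and lost its call, and in a fit that adjusted for small structured RNAs it was 0.46 (adjusted p = 0.401) and the difference of the double mutants was -0.33. Exons of *Pycard* share 485 bases with Gm45205 on the opposite strand, which had 0 to 6 counts, and the use of strand in the counting is not given in the sources used here.

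**Figure D1:**
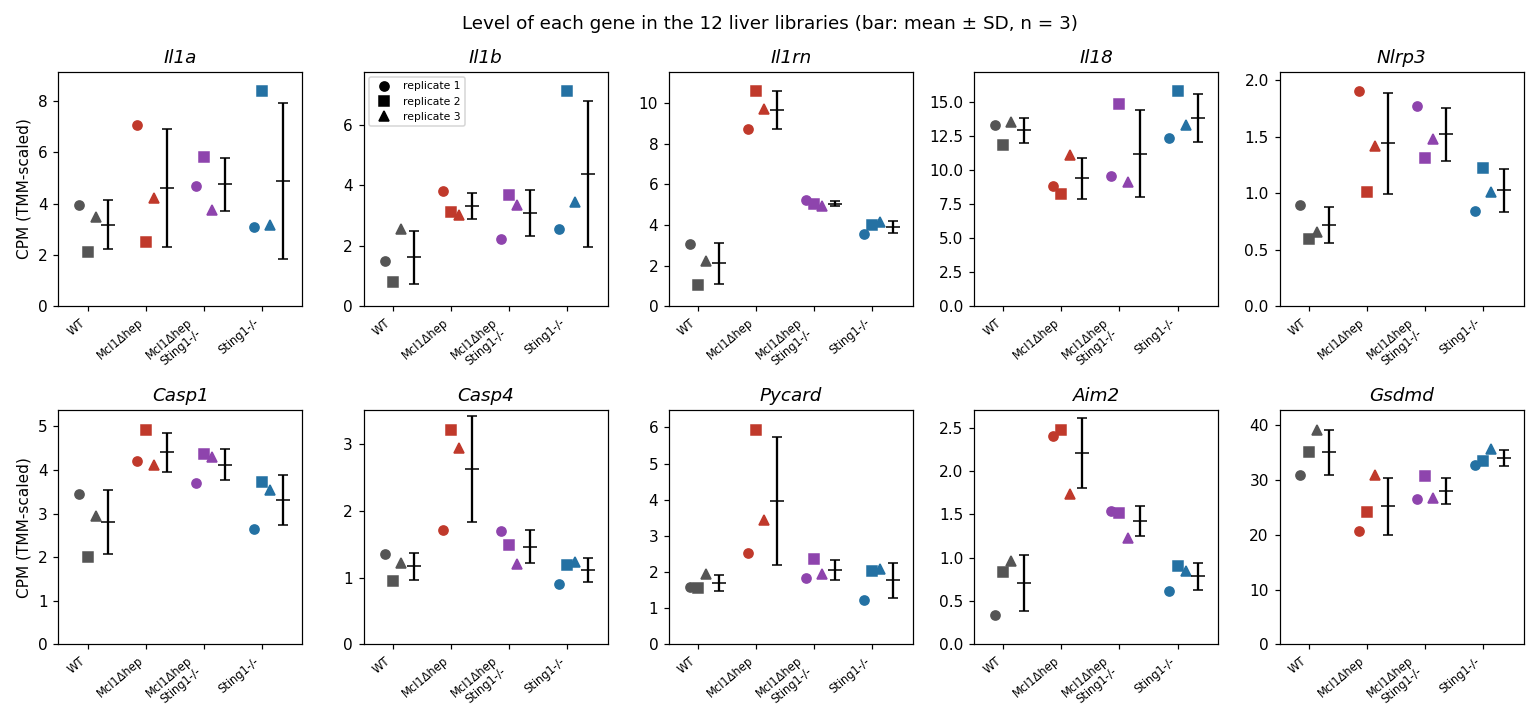
Level of each of the 10 genes in CPM (linear axes from 0, one scale per panel) by genotype, with 1 point per liver and the mean ± SD of 3 livers beside it. The *Il1rn* points of the 4 genotypes form separate bands, from 1.07 to 3.06 CPM in WT up to 8.73 to 10.6 CPM in *Mcl1*Δhep livers, whereas the *Il1a* points of all genotypes overlap.

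*Casp1* (ENSMUSG00000025888, chr9:5298508-5307290, plus strand) encodes the protease that inflammasomes activate. It was at 3.46, 2.02, and 2.94 CPM in WT, 4.20, 4.93, and 4.11 CPM in *Mcl1*Δhep, 3.71, 4.36, and 4.30 CPM in *Mcl1*Δhep *Sting1*-/-, and 2.65, 3.71, and 3.55 CPM in *Sting1*-/- livers. All *Mcl1*Δhep livers lay above all WT livers, but the difference of 0.64 ± 0.22 on the log2 scale missed the threshold (adjusted p = 0.0575), which it passed in DESeq2 (log2 fold change 0.66, adjusted p = 0.0323). *Casp4* (ENSMUSG00000033538, chr9:5308828-5336783, plus strand) encodes caspase-11, which senses lipopolysaccharide in the cytosol and cuts gasdermin D. Its levels were 1.35, 0.949, and 1.22 CPM in WT, 1.72, 3.21, and 2.94 CPM in *Mcl1*Δhep, 1.70, 1.49, and 1.20 CPM in *Mcl1*Δhep *Sting1*-/-, and 0.902, 1.19, and 1.23 CPM in *Sting1*-/- livers. The 3 *Mcl1*Δhep livers were again above the other 9, although replicate 1 was only slightly above the highest double mutant. *Casp4* rose by 1.12 ± 0.28 over WT (adjusted p = 0.0178), and *Mcl1*Δhep *Sting1*-/- differed from *Mcl1*Δhep by -0.81 ± 0.28 (adjusted p = 0.157). In a fit adjusted for small structured RNAs, these differences were 0.60 (adjusted p = 0.302) and -0.40. *Casp1* and *Casp4* are neighbouring paralogs, and how reads that match both were counted is not given in the sources used here.

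*Gsdmd* (ENSMUSG00000022575, chr15:75733974-75739257, plus strand), the gene of gasdermin D, behaved unlike the genes upstream of it. It was the most abundant of the 10 genes, with a median of 37.8 TPM over the libraries, and stood at 30.9, 35.0, and 39.2 CPM in WT against 20.6, 24.2, and 30.8 CPM in *Mcl1*Δhep livers. The *Mcl1*Δhep *Sting1*-/- livers had 26.6, 30.8, and 26.7 CPM and the *Sting1*-/- livers 32.8, 33.5, and 35.6 CPM. The highest *Mcl1*Δhep liver was just below the lowest WT liver, and the double mutants were all below the *Sting1*-/- livers. The difference from WT was -0.48 ± 0.16 on the log2 scale, with an adjusted p of 0.0492 that lies close to the threshold. It kept its call in DESeq2 (adjusted p = 0.0389) and in 2 of the 12 fits that left out 1 library. With upper-quartile scaling factors the difference was -0.33 (adjusted p = 0.174) and lost its call, as it did with RLE size factors (-0.46, adjusted p = 0.0591).

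Of the cytokine genes, *Il1a* (ENSMUSG00000027399, chr2:129140291-129152098, minus strand) encodes IL-1α, an alarmin that is active without cutting by caspase-1. It varied within genotypes more than between them, with 3.96, 2.11, and 3.47 CPM in WT, 7.08, 2.51, and 4.24 CPM in *Mcl1*Δhep, 4.71, 5.82, and 3.75 CPM in *Mcl1*Δhep *Sting1*-/-, and 3.08, 8.38, and 3.16 CPM in *Sting1*-/- livers. The genotypes overlapped throughout, and the highest value was that of *Sting1*-/- replicate 2. The log2 difference of *Mcl1*Δhep from WT was 0.53 ± 0.44 (adjusted p = 0.401). Exons of *Il1a* share 477 bases with Gm14023 on the opposite strand, which had 4 to 30 counts per library.

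*Il1b* (ENSMUSG00000027398, chr2:129206490-129213059, minus strand) encodes the precursor of IL-1β, the main product of caspase-1. It was at 1.50, 0.801, and 2.54 CPM in WT, 3.83, 3.12, and 3.04 CPM in *Mcl1*Δhep, 2.24, 3.68, and 3.37 CPM in *Mcl1*Δhep *Sting1*-/-, and 2.56, 7.11, and 3.45 CPM in *Sting1*-/- livers. *Sting1*-/- replicate 2 was highest here too, and the WT livers lay below both the *Mcl1*Δhep and the *Sting1*-/- livers. Neither difference passed the test: *Mcl1*Δhep exceeded WT by 1.03 ± 0.42 (adjusted p = 0.102), and *Sting1*-/- exceeded WT by 1.41 ± 0.42 (adjusted p = 0.676). Without *Sting1*-/- replicate 2, the latter difference was 0.88.

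*Il18* (ENSMUSG00000039217, chr9:50466081-50493633, plus strand) encodes the other cytokine precursor that caspase-1 cuts. Unlike *Il1b*, it was lower in the *Mcl1*Δhep livers (8.81, 8.26, and 11.1 CPM) than in the WT livers (13.3, 11.9, and 13.6 CPM), without overlap. The *Mcl1*Δhep *Sting1*-/- livers had 9.59, 14.9, and 9.11 CPM and the *Sting1*-/- livers 12.4, 15.8, and 13.3 CPM, so that replicate 2 of the double mutants lay among the *Sting1*-/- livers. The difference of *Mcl1*Δhep from WT was -0.46 ± 0.20 (adjusted p = 0.114). *Il18* was at a median of 13.9 TPM, second to *Gsdmd* among the 10 genes.

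*Il1rn* (ENSMUSG00000026981, chr2:24226865-24241506, plus strand) encodes the IL-1 receptor antagonist, which binds the IL-1 receptor without starting a signal. It differed most of the 10 genes. The WT livers had 3.06, 1.07, and 2.21 CPM and the *Mcl1*Δhep livers 8.73, 10.6, and 9.74 CPM, with 5.21, 5.04, and 4.93 CPM in *Mcl1*Δhep *Sting1*-/- and 3.58, 4.01, and 4.13 CPM in *Sting1*-/- livers. The 4 genotypes did not overlap, in the order WT, *Sting1*-/-, *Mcl1*Δhep *Sting1*-/-, and *Mcl1*Δhep. *Mcl1*Δhep exceeded WT by 2.16 ± 0.28 on the log2 scale (adjusted p = 0.00133). The double mutants differed from *Mcl1*Δhep livers by -0.93 ± 0.27 (adjusted p = 0.139) and from *Sting1*-/- livers by 0.37 ± 0.27 (adjusted p = 0.703). Its promoter window held none of the 4 motifs.

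Read over the list, 6 of the 10 genes were called between *Mcl1*Δhep and WT livers, 5 of them higher and 1 lower, at an adjusted p under 0.05. Of all tested genes, 20.2% were called in this comparison, 10.8% higher and 9.43% lower. The median log2 fold change was 0.99 over the 10 genes and -0.00491 over all tested genes. The *Mcl1*Δhep and WT livers did not overlap in 9 of the 10 genes, all but *Il1a*, against 33.3% of all tested genes. The calls leaned on single libraries, for these genes and for all genes alike. Without WT replicate 2, the calls were *Il1rn* and *Aim2* alone (7.99% of all genes tested in that fit), without WT replicate 3 they were *Il1rn*, *Pycard*, and *Aim2* (10.3%), and without *Mcl1*Δhep replicate 2 they were *Il1rn*, *Nlrp3*, and *Aim2* (8.09%). *Il1rn* and *Aim2* were called in all 12 fits that left out 1 library, whereas in a fit to the 9 libraries without Y-linked expression, which left 1 WT liver assumed to vary like the other livers, they differed by 1.64 and 2.51 with adjusted p-values of 0.0927 and 0.0949, and 0 of the 10 genes and 0.0247% of all genes tested there were called.

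**Figure D2:**
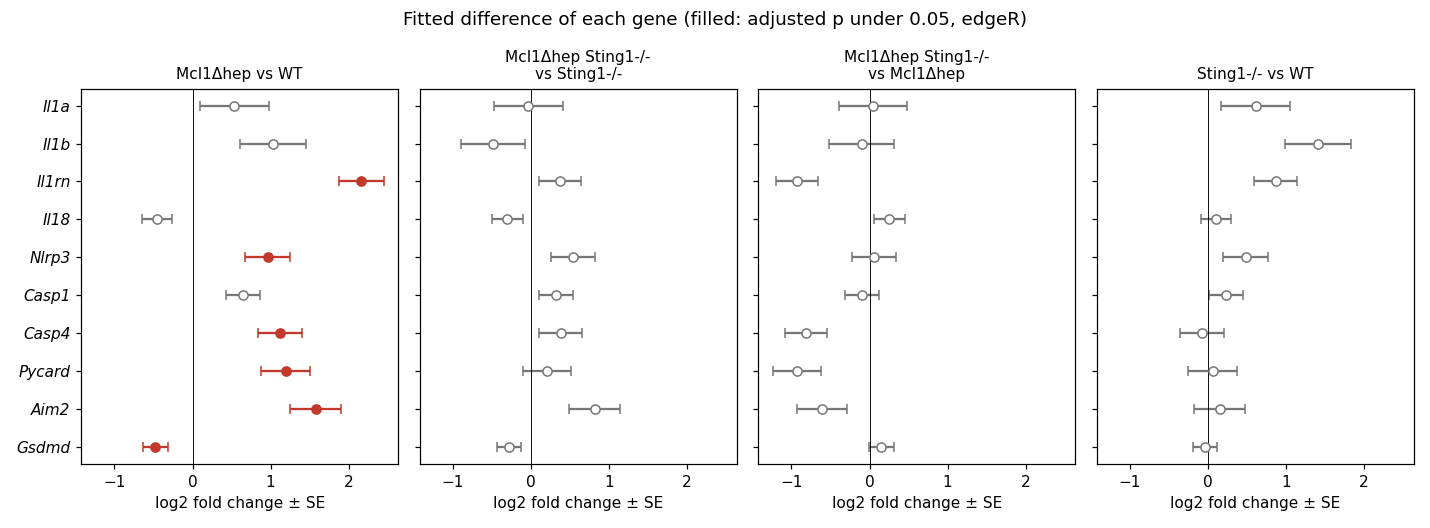
Log2 fold change ± SE of each of the 10 genes in the 4 comparisons between genotypes, from edgeR's fit to all 12 libraries, with filled points for an adjusted p under 0.05. All 6 filled points are in the first panel, where *Il1rn* is farthest from 0 at 2.16.

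The *Mcl1*Δhep *Sting1*-/- livers were compared with the *Mcl1*Δhep livers to ask how the same genes stood without *Sting1*. *Il1rn*, *Casp4*, *Pycard*, and *Aim2* were lower in the double mutants without overlap (18.2% of all tested genes did not overlap), and *Nlrp3*, *Casp1*, *Il1a*, and *Il1b* differed by at most 0.10 on the log2 scale. None of the 10 was called by edgeR's quasi-likelihood test, and neither was any other gene (0% of all tested genes). *Il1rn*, *Casp4*, and *Pycard* had an unadjusted p under 0.05, as did 3098 of the 15070 genes. DESeq2 called *Il1rn* (log2 fold change -0.94, adjusted p = 0.0249) and 4.77% of the genes it tested. Without *Mcl1*Δhep replicate 1, edgeR called *Il1rn*, *Casp4*, and *Pycard*, 3 of the 10 genes, and 20.2% of all genes tested in that fit.

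In the *Sting1*-/- livers, 0 of the 10 genes were called against WT (0% of all tested genes), 2 had an unadjusted p under 0.05, as did 821 of all tested genes, and DESeq2 called 0 (0.264% of the genes it tested). *Il1b* and *Il1rn* lay above WT without overlap, as 12.5% of all tested genes did in either direction, and the difference of *Il1rn* was 0.87 ± 0.28 (adjusted p = 0.767). The other 8 genes differed by between -0.08 and 0.61. Between *Mcl1*Δhep *Sting1*-/- and *Sting1*-/- livers, again 0 of the 10 were called by edgeR or DESeq2, and 1, *Aim2*, had an unadjusted p under 0.05, as did 1709 of all tested genes. In this comparison edgeR called 0.803% of all tested genes and DESeq2 called 2.95% of those it tested. *Nlrp3*, *Aim2*, *Il1rn*, and *Gsdmd* did not overlap, with the first 3 higher and *Gsdmd* lower in the double mutants, where 22.3% of all tested genes did not overlap.

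Averaged over both *Sting1* genotypes, 6 of the 10 genes were called between livers without and with hepatocyte *Mcl1*. Of all tested genes, 16.7% were called in this average (9.9% higher and 6.83% lower). *Il1rn* rose by 1.27 ± 0.20 (adjusted p = 0.00159), *Aim2* by 1.19 ± 0.23 (adjusted p = 0.00598), *Nlrp3* by 0.75 ± 0.20 (adjusted p = 0.0252), *Casp4* by 0.75 ± 0.20 (adjusted p = 0.0231), and *Pycard* by 0.70 ± 0.22 (adjusted p = 0.0494), and *Gsdmd* fell by 0.38 (adjusted p = 0.0352). Of the 12 fits that left out 1 library, *Pycard* was called in 1, *Gsdmd* in 4, *Nlrp3* and *Casp4* in 7 each, and *Il1rn* and *Aim2* in all 12. This average shares the *Mcl1*Δhep and WT livers with the comparison above and is not separate evidence. The test of the difference itself, whether the effect of *Mcl1* loss depended on the *Sting1* genotype, called 0 of the 10 genes and 0% of all tested genes. *Il1rn*, *Il1b*, and *Pycard* had an unadjusted p under 0.05, as did 2165 of all tested genes. The tested value subtracts the difference of *Mcl1*Δhep from WT, so genes higher there lean to a negative value by construction. Its sign is therefore not separate evidence of dependence on *Sting1*. The value was negative for 8 of the 10 genes, those that were higher in *Mcl1*Δhep than in WT livers. In the *Sting1*-/- background, 6 of these had a smaller positive value, and *Il1a* and *Il1b* turned to -0.03 ± 0.44 and -0.49 ± 0.41. For *Il1rn* the difference was -1.79 ± 0.39 (adjusted p = 0.216), and DESeq2 gave -1.82 with an adjusted p of 0.00195, where it called 1.15% of its tested genes. edgeR called *Il1rn* too without WT replicate 1, where it called 0.573% of all genes, and without *Mcl1*Δhep replicate 1, where it called 10.2%.

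The balance of antagonist to agonist transcripts was described by the ratio of *Il1rn* to the sum of *Il1a* and *Il1b* in TPM. It was 0.323, 0.212, and 0.203 in the WT livers, 0.450, 0.996, and 0.738 in the *Mcl1*Δhep livers, 0.426, 0.295, and 0.376 in the *Mcl1*Δhep *Sting1*-/- livers, and 0.346, 0.141, and 0.334 in the *Sting1*-/- livers. All *Mcl1*Δhep livers lay above the other 9, but only narrowly, with 0.450 in *Mcl1*Δhep replicate 1 and 0.426 in *Mcl1*Δhep *Sting1*-/- replicate 1. *Il1rn* alone already set these livers apart, so the ratio is not separate evidence, and *Il1a* and *Il1b* alone overlapped or missed the test. The ratio of *Il18bp*, which encodes the soluble decoy of IL-18, to *Il18* was 0.801 ± 0.150 in WT, 1.63 ± 0.257 in *Mcl1*Δhep, 1.31 ± 0.292 in *Mcl1*Δhep *Sting1*-/-, and 0.879 ± 0.119 in *Sting1*-/- livers (SD, n = 3 each). Both groups without hepatocyte *Mcl1* were above both groups with it in this ratio, but only narrowly. *Mcl1*Δhep *Sting1*-/- replicate 2 was at 1.018 and *Sting1*-/- replicate 1 at 1.013. *Casp4* over *Casp1* gave 0.354 ± 0.0967 in *Mcl1*Δhep and 0.254 ± 0.0248 in WT livers, with overlap. No test was run on these ratios.

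**Figure D3:**
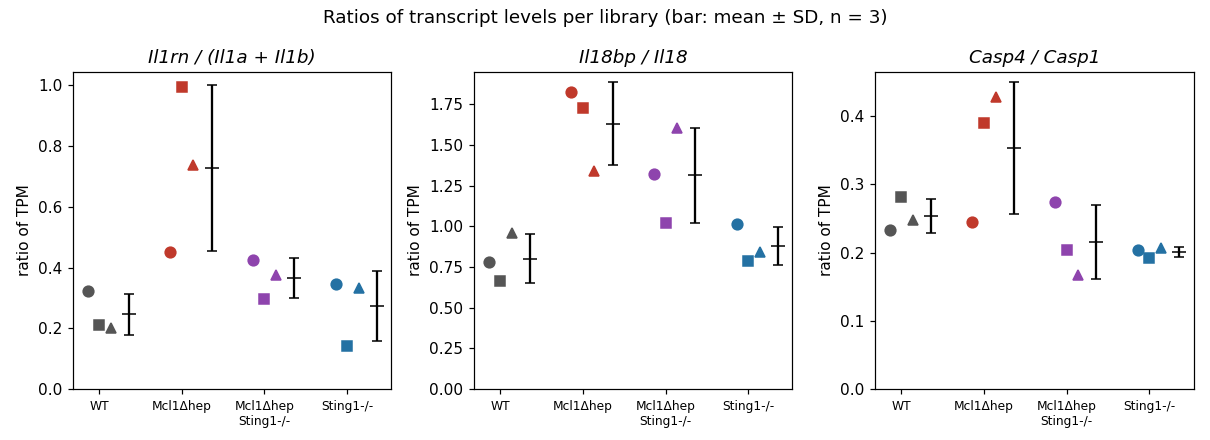
Ratios of TPM per liver for *Il1rn* over *Il1a* plus *Il1b*, *Il18bp* over *Il18*, and *Casp4* over *Casp1*, with 1 point per liver and the mean ± SD of 3 livers. In the first panel the *Mcl1*Δhep livers run from 0.450 to 0.996 and the other 9 livers from 0.141 to 0.426.

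Other genes of the pathway were counted in the same fit. Of 14 tested genes among 15 other sensors and regulators, 4 rose and 1 fell in *Mcl1*Δhep against WT livers, where 20.2% of all tested genes were called, which is the background for the 4 lists that follow too. *Mefv*, which encodes the sensor pyrin, rose by 1.45 ± 0.34, *Nlrc4*, which works with NAIP proteins against bacterial flagellin, by 0.90 ± 0.25, the lipopolysaccharide receptor gene *Tlr4* by 0.85 ± 0.18, and the ATP-gated channel gene *P2rx7*, named outside the rule for this list, by 0.63 ± 0.19. *Nlrp6*, a sensor known best from intestinal epithelium, fell from 61.2 ± 7.14 to 30.2 ± 9.87 CPM (mean ± SD of 3 livers). The log2 difference of *Mcl1*Δhep from WT was -1.02 ± 0.22 (adjusted p = 0.00983). *Nlrp6* was at 51.8 ± 10.4 CPM in the double mutants, 0.78 ± 0.22 above *Mcl1*Δhep on the log2 scale. This difference was not called (adjusted p = 0.135), although DESeq2 called it (adjusted p = 0.0288). *Nlrc4* was the only gene of the 5 pathway lists that was called between *Mcl1*Δhep *Sting1*-/- and *Sting1*-/- livers, with a rise of 1.26 ± 0.25 (adjusted p = 0.0448).

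Of the other caspases and membrane rupture genes, 4 of 8 were tested and 1 rose: *Gsdme*, a gasdermin cut by caspase-3, by 1.71 ± 0.42, in the direction opposite to *Gsdmd*. *Il33*, an alarmin of the IL-1 family, was at 3.17, 2.70, and 2.38 CPM in WT, at 6.39, 12.5, and 5.19 CPM in *Mcl1*Δhep, at 4.18, 3.53, and 2.63 CPM in *Mcl1*Δhep *Sting1*-/-, and at 2.82, 3.66, and 2.87 CPM in *Sting1*-/- livers. The *Mcl1*Δhep livers were above the other 9, with a rise of 1.53 ± 0.31 over WT (adjusted p = 0.00781) and a difference of -1.21 ± 0.31 in the double mutants (adjusted p = 0.133). It was 1 of 2 tested among 6 other ligands, and the other, *Il36g*, rose by 1.56 ± 0.41 from 1 to 5 counts per WT library and missed the threshold in DESeq2 (adjusted p = 0.0561). Of the receptors and decoys, 7 of 9 were tested. *Il1rl2*, the receptor gene for IL-36, rose by 1.36 ± 0.30 from only 7 to 11 counts per WT library. *Il18bp* rose by 0.53 ± 0.17, and *Il1rap*, the gene of the shared coreceptor, fell by 0.70. Of the 11 genes of IL-1 receptor signaling, 0 rose and 1 fell, *Irak1*, a kinase that acts after MyD88, by 0.48.

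Markers of some, though not all, blood-derived and other liver cells were also higher in *Mcl1*Δhep livers. Of all tested genes, 10.8% were called higher in this comparison. Between *Mcl1*Δhep and WT livers, 6 of 6 pan-leukocyte, 7 of 10 macrophage, 2 of 7 Kupffer cell, 6 of 7 recruited monocyte, 6 of 8 tested neutrophil, 3 of 9 tested T and NK cell, and 5 of 7 stellate cell markers rose, and 0 of 6 B cell, 0 of 7 sinusoidal endothelial, and 0 of 6 cholangiocyte markers did. The summed macrophage markers ran from 449 to 691 CPM in WT, 835 to 1086 CPM in *Mcl1*Δhep, 749 to 777 CPM in *Mcl1*Δhep *Sting1*-/-, and 505 to 705 CPM in *Sting1*-/- livers. For recruited monocytes the sums were 13.5 to 17.1, 35.9 to 82.5, 19.2 to 25.0, and 14.2 to 17.5 CPM in the same order. The neutrophil sums were 3.14 to 5.18, 10.9 to 24.4, 6.55 to 7.55, and 2.94 to 8.08 CPM, and the defining marker *Ly6g* was at 0 in every WT and *Sting1*-/- liver. More cells of a type and more RNA per cell cannot be told apart in bulk liver. In a fit with the mean macrophage marker level of each library as a covariate, 0 of the 10 genes and 0 of the 15070 tested genes were called between *Mcl1*Δhep and WT, and the values were 1.40 for *Il1rn* (adjusted p = 0.488), 1.10 for *Aim2*, -0.07 for *Casp1*, and -0.71 for *Il1b*. The *Mcl1*Δhep and WT livers did not overlap in that covariate, and its part in the result was not tested.

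**Figure D4:**
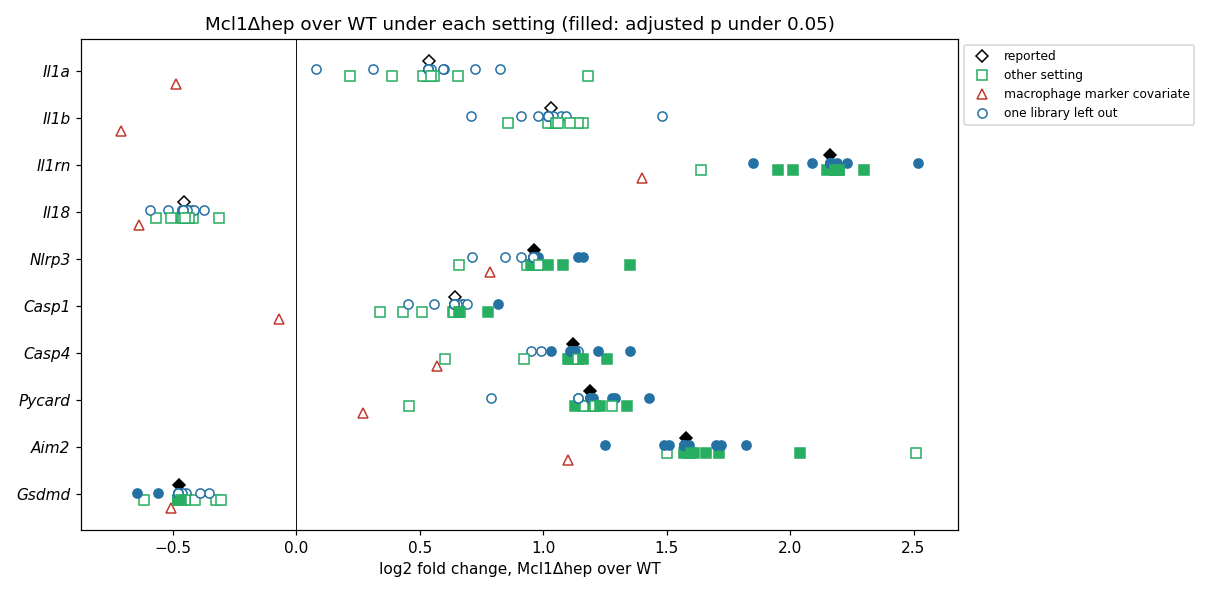
Log2 fold change of *Mcl1*Δhep over WT for each of the 10 genes as reported (diamonds), with 1 library left out (circles), with macrophage markers as a covariate (triangles), and under the other settings (squares), where filled points have an adjusted p under 0.05. The circles of *Il1rn* are all filled and lie between 1.85 and 2.52, those of *Gsdmd* lie between -0.65 and -0.35 with 2 filled, and 0 triangles are filled.

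Across the 12 libraries, the genes most like the inflammasome genes were listed by Pearson's r of log2 CPM over 12549 genes, as a description of libraries of 4 genotypes whose leukocyte markers also differed. *Casp1* was most like *P2ry14* (0.947), *Ppp1r18* (0.944), and *Ucp2* (0.928), and *Casp4* like Gm49759 (0.973), *Evi2a* (0.971), and *Csrp1* (0.967). *Il1b* was most like *Cfp* (0.905), *Gimap6* (0.885), and *Sp140* (0.878), and *Nlrp3* like *Ndrg1* (0.934), *Fgd1* (0.902), and *Flvcr2* (0.899). Among the 10 genes themselves, *Casp4* and *Pycard* were closest (0.909), followed by *Il1rn* and *Casp1* (0.888) and by *Il1rn* and *Casp4* (0.804), and *Gsdmd* was closest to *Il18* (0.803).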

How the data were processed

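Total RNA of 12 mouse livers was sequenced on an Illumina instrument. The authors deposited unnormalized counts for each library, the reads assigned to each Ensembl gene as integers. The submitters' processing notes name STAR, featureCounts, and GRCm39. Versions, strand, and handling of multi-mapping reads are not given in the sources used here, and the labels and the methods name different RNA kits. The study text describes 2-month-old livers. The labels give genotype and replicate only, so p-values measure the spread between these samples.

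The quasi-likelihood test of edgeR 4.0.16 (R 4.3.3) was fitted to all 12 libraries and 15070 genes kept by filterByExpr, with TMM scaling and a prior count of 2 for log2 fold changes, and p-values were adjusted over them by Benjamini-Hochberg, with calls at an adjusted p under 0.05. DESeq2 1.42.0 was an alternative. SE is the absolute log2 fold change divided by the square root of F. TPM used summed exon lengths of GENCODE vM39 (GRCm39), in which 39533 of 40551 identifiers were found. Promoter windows were the 250 bases before each canonical start. Both count tests were tested on simulated data. A check for duplicated libraries gave chi-square over degrees of freedom of 40.1 to 290 between livers of a genotype, far above sampling noise.

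The members and lists were chosen with earlier results of these data known. Named were the 10 genes, *Mcl1* and *Sting1*, at most the 4 genes with the lowest adjusted p of each pathway list, and the 3 genes most like each of *Casp1*, *Casp4*, *Il1b*, and *Nlrp3*, with *P2rx7* added after its value was seen. Alternatives were other scaling factors, no filter, DESeq2, covariates, only the groups compared, a block for replicate number, and fits with any 1 library left out. The fit without Y-expressing libraries was added after seeing the data.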

Additional observations from a re-analysis of the deposited data

How the results depend on the processing

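The number of the 10 genes called between *Mcl1*Δhep and WT livers was 6. It was 2 with Y-linked expression as a covariate (10% of all genes called, against 20.2%), 2 with the share of small structured RNAs (3.22%), 2 with only both groups in the fit (8.15%), 0 with macrophage markers (0%), 0 with only libraries without Y-linked expression (0.0247%), and 2 to 6 when 1 library was left out (7.99% to 34.1%). For *Mcl1*Δhep *Sting1*-/- against *Mcl1*Δhep livers it was 0, 1 in DESeq2, and 0 to 3 with 1 library left out. The average *Mcl1* effect gave 6 (16.7% of all genes), 0 with macrophage markers (0.0133%), 2 with only libraries without Y-linked expression (2.24%), and 2 to 7 with 1 library left out (11.1% to 27.8%). It was 2 without WT replicate 2, without *Mcl1*Δhep *Sting1*-/- replicate 1, or without *Sting1*-/- replicate 1, and 3 without WT replicate 3, *Mcl1*Δhep replicate 2, or *Sting1*-/- replicate 3. The test of dependence on *Sting1* gave 0, 1 in DESeq2, and 0 to 1 with 1 library left out. The other counts stayed within 1.5 times the reported ones. The cause of these shifts was not tested.

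Livers with the same number did not deviate together (r from -0.541 to 0.251 over 18 pairs, 3 of them over 0.1), so the numbers were not taken as pairs. With a replicate block, 6 genes were called in *Mcl1*Δhep against WT and 6 in the average.

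Differences that turned direction were all uncalled. With macrophage markers as a covariate, *Mcl1*Δhep against WT gave -0.489 for *Il1a*, -0.71 for *Il1b*, and -0.0715 for *Casp1*, and the average *Mcl1* effect gave -0.428, -0.907, and -0.0128 for the same genes. That covariate also gave 0.68 (*Il1b*) and 0.218 (*Casp1*) for the double mutants against *Mcl1*Δhep, -0.127 for *Pycard* in *Sting1*-/- against WT, -0.12 for *Pycard* in the double mutants against *Sting1*-/-, and 0.123 (*Il1a*) and 0.117 (*Casp1*) for the dependence on *Sting1*. With small structured RNAs as a covariate, the double mutants against *Mcl1*Δhep gave -0.432 (*Il1a*), -0.227 (*Nlrp3*), and 0.0085 (*Casp1*), and *Sting1*-/- against WT gave -0.19 (*Pycard*). Upper-quartile factors gave -0.0365 (*Il1a*) and -0.0235 (*Nlrp3*) for the double mutants against *Mcl1*Δhep and 0.00978 (*Il1a*) against *Sting1*-/-. The Y-linked covariate gave 0.00749 (*Casp1*) for the double mutants against *Mcl1*Δhep, -0.0166 (*Il18*) and 0.0219 (*Gsdmd*) for *Sting1*-/- against WT, and 0.0477 (*Il1a*) for the double mutants against *Sting1*-/-. With only libraries without Y-linked expression, the double mutants against *Mcl1*Δhep gave 0.0881 (*Il1b*) and -0.0458 (*Nlrp3*), *Sting1*-/- against WT gave -0.059 (*Casp1*) and 0.14 (*Gsdmd*), and the dependence on *Sting1* gave 0.0429 (*Casp1*).

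With 1 library left out, the double mutants against *Mcl1*Δhep ranged from -0.249 to 0.496 (*Il1a*), -0.239 to 0.0823 (*Il1b*), -0.0026 to 0.391 (*Il18*), and -0.131 to 0.312 (*Nlrp3*). *Sting1*-/- against WT ranged from -0.0233 to 0.848 (*Il1a*), -0.00527 to 0.172 (*Il18*), -0.2 to 0.0459 (*Casp4*), -0.0643 to 0.26 (*Pycard*), -0.17 to 0.403 (*Aim2*), and -0.127 to 0.0441 (*Gsdmd*). The double mutants against *Sting1*-/- ranged from -0.272 to 0.599 (*Il1a*) and -0.756 to 0.0415 (*Il1b*), and the dependence on *Sting1* from -0.859 to 0.0683 (*Il1a*) and -0.102 to 0.294 (*Il18*). The lowest gene, *Aim2*, had as few as 13 counts in a library, and 3 livers per genotype limit what these differences can show.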
